A study of Homo sapiens with 6 samples.

Results

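The genes described here belong to interferon signalling or are interferon-stimulated genes, and were taken by symbol from a list of 41: receptor chains and their kinases, transcription factors, RNA sensors and antiviral effectors. All 41 were found among the 60504 genes of the deposited count table, and 36 passed the filter on low counts and were tested with the 15116 genes of the whole table. The RNA came from HepG2 cells, a long-established line grown from a human liver tumour, in 2 groups of 3 libraries. The oridonin group was treated with 10 µM oridonin, a diterpenoid of Isodon plants, for 48 h, and the DMSO group with 0.1% DMSO for 48 h. The labels do not say whether the oridonin samples also held DMSO, and both groups were grown in DMEM, with no added interferon or virus named. The labels number the libraries of a group without saying whether they came from separate cultures, so each p-value rests on how far these libraries spread, and that spread may be technical.

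Interferons are secreted proteins that cells make when sensors such as RIGI and IFIH1 detect foreign RNA. Type I interferon binds a receptor built from IFNAR1 and IFNAR2, whose bound kinases TYK2 and JAK1 phosphorylate STAT proteins such as STAT2. With IRF9 these bind the interferon-stimulated response element (ISRE) in promoters of antiviral genes, whereas interferon gamma signals through IFNGR1 and IFNGR2 to the gamma-activated site (GAS).

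In HepG2 cells treated with oridonin, interferon genes moved in both directions. Of the 36 tested members, 9 were higher and 10 were lower with oridonin by edgeR's quasi-likelihood test at a Benjamini-Hochberg adjusted p under 0.05 over all genes, and 17 did not pass. Over all tested genes 41.9% passed, 20.6% higher and 21.3% lower, against 52.8%, 25.0% and 27.8% of the tested members. OAS1, RIGI, SP100, PARP14, ISG15, IRF3, PARP9, TYK2 and the weakly expressed IFI27 rose. IFIH1, IFI6, IFITM3, IFITM2, MX1, UBE2L6, IRF1, USP18, IRF2 and ADAR fell. The oridonin and DMSO libraries did not overlap for 21 members, 9 higher and 12 lower, where 51.6% of all tested genes did not overlap, 26.0% higher and 25.6% lower. IFI27 was the 1 member called with a change of at least 2-fold, a mark that 4.72% of all tested genes passed. The median log2 fold change of the tested members was 0.03, beside 0.01 over all tested genes. Scaling to total counts in place of trimmed means (TMM) gave 11 members higher and 7 lower, and moved the share of upward calls over all genes to 65.5%, against 49.2% with TMM.

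**Figure D1:**
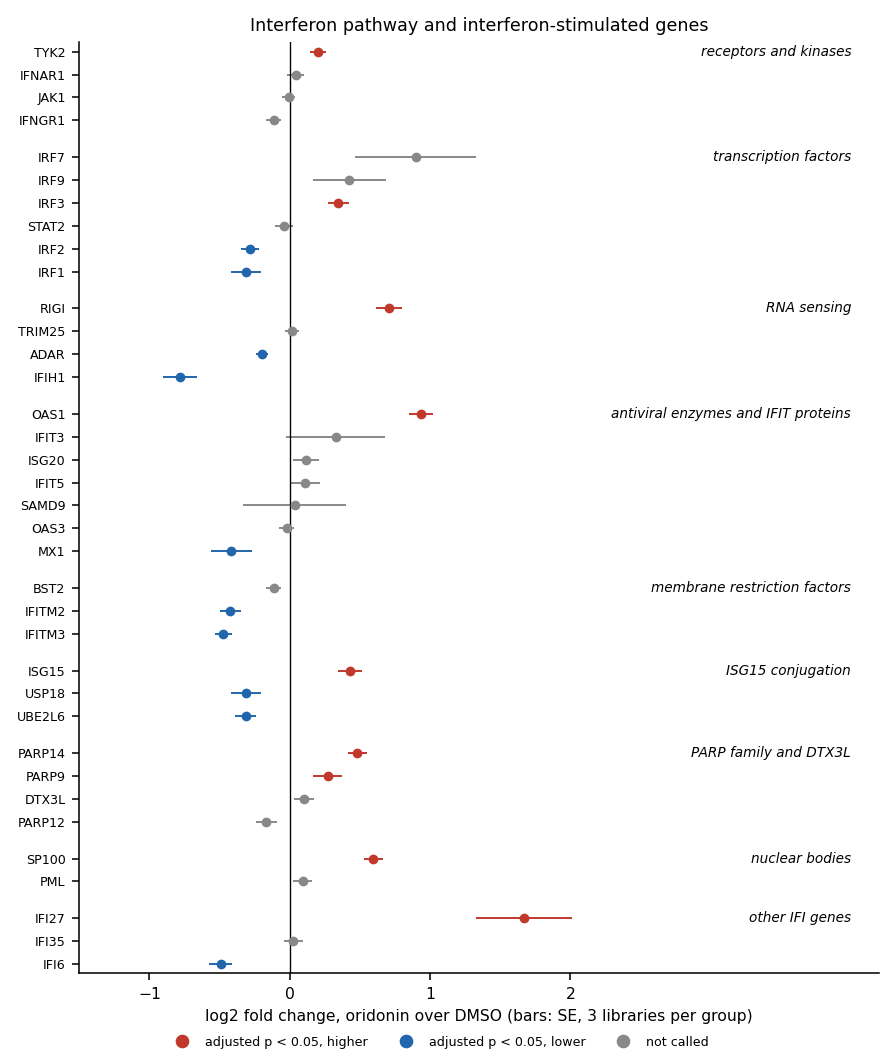
Log2 fold change of each tested member, oridonin over DMSO, with its standard error (3 libraries per group), grouped by role. Red and blue points passed the test as higher or lower with oridonin. Members of both directions stand in the same role, as with RIGI at 0.71 and IFIH1 at -0.78.

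The promoters of the members carry the response elements unevenly, and the sequences shown were chosen to set members that rose, fell and did not pass side by side. RefSeq promoters (GRCh38.p14, 250 bases before to 50 after the start) were found for 33 of the 41 members. The first listed promoter of each member was searched, so any other start of a gene was not covered. The ISRE core, searched as GAAA and GAAA with any 2 bases between them on both strands with overlapping matches kept, stood in 18 of the 33 (54.5%), against 3.57% of 35116 promoters of the same length. Of those 18 members, 3 rose, 4 fell, 8 did not pass and 3 were not tested. Of the 15 without a match, 5 rose, 3 fell and 7 did not pass. The median log2 fold change was 0.035 with a match and 0.025 without. The GAS core, searched as TTCNNNGAA, stood in 8 of the 33 (24.2%), against 7.66% of all promoters. Of those 8 members, OAS1, PARP14 and IFI27 rose, IRF1 fell, 3 did not pass and 1 was not tested. Of the 25 without a GAS match, 5 rose, 6 fell, 12 did not pass and 2 were not tested. The median log2 fold change was 0.42 with a GAS match, over the 7 tested members, and 0.013 without, and the difference was not tested. That median was the value of IRF9, a weakly expressed gene that did not pass. The 7 values ran from -0.31 for IRF1 to 1.67 for IFI27. The stretch just before the start, 5′ to 3′ on the gene's own strand, are given for the 3 members with an ISRE match that rose, for 3 of the 4 that fell and for OAS3, which did not pass. Capitals mark the ISRE matches, and adjoining or overlapping matches run together.
IFI27 (rose; chr14:94110571-94110735, plus strand): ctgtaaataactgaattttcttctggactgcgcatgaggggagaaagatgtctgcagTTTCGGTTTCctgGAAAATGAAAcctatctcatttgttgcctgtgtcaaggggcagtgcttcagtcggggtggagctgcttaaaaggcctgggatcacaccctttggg
ISG15 (rose; chr1:1013332-1013496, plus strand): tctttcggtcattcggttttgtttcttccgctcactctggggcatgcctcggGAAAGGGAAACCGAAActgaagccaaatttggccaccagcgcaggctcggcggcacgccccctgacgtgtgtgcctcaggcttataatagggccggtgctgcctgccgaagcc
PARP14 (rose; chr3:122680674-122680838, plus strand): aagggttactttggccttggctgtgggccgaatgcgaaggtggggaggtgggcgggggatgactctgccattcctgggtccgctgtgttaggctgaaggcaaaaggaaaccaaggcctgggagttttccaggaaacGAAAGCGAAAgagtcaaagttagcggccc
IFI6 (fell; chr1:27672193-27672357, minus strand): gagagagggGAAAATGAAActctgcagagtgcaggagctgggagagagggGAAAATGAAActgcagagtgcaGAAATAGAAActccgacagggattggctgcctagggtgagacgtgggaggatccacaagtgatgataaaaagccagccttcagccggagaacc
IFITM3 (fell; chr11:320861-321025, minus strand): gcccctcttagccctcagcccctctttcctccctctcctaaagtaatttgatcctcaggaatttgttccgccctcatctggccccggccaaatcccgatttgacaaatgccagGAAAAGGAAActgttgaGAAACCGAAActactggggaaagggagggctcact
IFIH1 (fell; chr2:162318685-162318849, minus strand): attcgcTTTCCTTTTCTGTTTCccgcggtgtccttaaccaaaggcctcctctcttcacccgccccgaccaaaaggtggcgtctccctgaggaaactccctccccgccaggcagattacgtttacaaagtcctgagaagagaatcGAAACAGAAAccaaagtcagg
OAS3 (not called; chr12:112938309-112938473, plus strand): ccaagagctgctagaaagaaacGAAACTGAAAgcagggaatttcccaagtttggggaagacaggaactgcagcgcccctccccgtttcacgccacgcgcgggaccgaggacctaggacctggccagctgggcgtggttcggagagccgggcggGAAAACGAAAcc

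Libraries held 27674586 to 30739574 counts in the oridonin group and 22250202 to 29352396 in the DMSO group, and the tested genes took at least 99.888% of each. All 9 hepatocyte markers on a list for HepG2 identity were expressed, at a summed 14800 to 17000 CPM (counts scaled to library size) with oridonin and 25100 to 28400 CPM with DMSO. Leukocyte markers summed to 441 to 468 CPM with oridonin and 693 to 726 CPM with DMSO, nearly all of it LYZ, which HepG2 expresses; 3 of the 8 tested of 20 were higher and 2 lower. The pan-leukocyte gene PTPRC had 0 to 3 counts per library and the B cell gene MS4A1 had 0 in each of the 6. Markers of plasmacytoid dendritic cells, a main source of type I interferon, summed to 0.26 to 0.425 CPM with oridonin and 0.211 to 0.319 CPM with DMSO, and none of the 4 was tested. Endothelial and fibroblast markers summed to 11.2 to 13.5 CPM with oridonin and 6.74 to 9.24 CPM with DMSO (2 of 5 tested higher, 1 lower).

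The interferons themselves were hardly detected. Of 21 interferon genes of types I, II and III, 19 had 0 counts in all 6 libraries, and the other two, IFNA10 and IFNK, had 1 count in 1 DMSO library each. A count of 0 allows up to 3 counts, which is 0.0976 to 0.108 CPM of total counts in an oridonin library and 0.102 to 0.135 CPM in a DMSO library, for counting error only.

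The receptor chains and kinases among the members were well expressed, and 1 of the 4, TYK2, passed the test. TYK2, the kinase bound to IFNAR1, had 92.5, 87.8 and 96.6 CPM in the oridonin libraries, against 76.5, 78.5 and 85.4 CPM in the DMSO libraries. The groups did not overlap, with a log2 fold change of 0.20 ± 0.06 (SE) at an edgeR adjusted p of 0.00812. IFNGR1, the ligand-binding chain of the interferon gamma receptor, had 128, 141 and 126 CPM with oridonin and 146, 146 and 135 CPM with DMSO. These groups overlapped, and the change of -0.11 did not pass (edgeR adjusted p = 0.109). It did pass without oridonin replicate 2 (-0.17, adjusted p = 0.03315) and without DMSO replicate 3 (-0.15, adjusted p = 0.0258), in a range of 0.00956 to 0.648 over 14 other settings. IFNAR1 averaged 53.8 ± 3.06 CPM with oridonin and 52.3 ± 2.80 CPM with DMSO, and JAK1 averaged 129 ± 2.58 CPM with oridonin and 130.1 ± 2.97 CPM with DMSO (SD, n = 3 each), and neither passed.

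Among 6 further receptor chains, kinases and STAT genes, none of them a member, 2 rose and 2 fell. Each direction held 33.3% of this short list, beside 20.6% higher and 21.3% lower over all tested genes. JAK2, a kinase of the interferon gamma receptor, averaged 8.94 ± 0.466 CPM with oridonin and 6.17 ± 0.796 CPM with DMSO, and STAT3 averaged 214.5 ± 1.47 CPM with oridonin and 189.9 ± 1.46 CPM with DMSO (SD, n = 3 each). IFNGR2 fell to 34.8 ± 1.57 CPM with oridonin, against 42.1 ± 1.92 CPM with DMSO, and shares 380 exon bases with TMEM50B on the opposite strand. IFNLR1, the specific chain of the type III receptor, fell to 11.6 ± 0.583 CPM with oridonin, against 14.6 ± 0.799 CPM with DMSO (SD, n = 3 each).

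The 6 transcription factors went both ways: IRF3 rose, IRF1 and IRF2 fell, and STAT2, IRF7 and IRF9 did not pass. IRF3, which is activated downstream of RNA and DNA sensors and switches on interferon genes, had 82.0, 79.7 and 96.7 CPM with oridonin, against 62.9, 66.9 and 73.1 CPM with DMSO. The oridonin libraries all lay above the DMSO libraries (log2 fold change 0.35 ± 0.08, SE, edgeR adjusted p = 0.00197). IRF3 shares 734 exon bases with BCL2L12 on the opposite strand, which averaged 59.2 CPM with oridonin and 56.9 CPM with DMSO, so without a known strand setting the value of IRF3 is uncertain. IRF2, which competes with IRF1 for ISRE-like sites, had 23.8, 24.9 and 25.2 CPM with oridonin, against 29.8, 30.7 and 29.4 CPM with DMSO. Every oridonin library was below every DMSO library (-0.28 ± 0.06, SE, edgeR adjusted p = 0.00157). IRF1, itself induced by interferon gamma, had 7.06, 7.27 and 7.52 CPM with oridonin, against 7.75, 9.59 and 9.64 CPM with DMSO.

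IRF1 was called at -0.31 ± 0.11 (SE, edgeR adjusted p = 0.0253), with 7.52 CPM in the highest oridonin library and 7.75 CPM in the lowest DMSO library. The call was lost without oridonin replicate 1 (edgeR adjusted p = 0.081), oridonin replicate 2 (0.0666), DMSO replicate 2 (0.108) or DMSO replicate 3 (0.0726). It was also lost with total-count scaling, DESeq2 and limma on log2 FPKM. The adjusted p ranged from 0.00513 to 0.158 over 14 settings. STAT2, a subunit of the ISRE-binding complex, had 31.6, 28.5 and 30.7 CPM with oridonin and 31.6, 32.1 and 29.8 CPM with DMSO, fully overlapping. IRF9, the DNA-binding subunit of that complex, shares 1838 exon bases with AL136295.5 on its own strand and was weakly expressed, at 1.08 ± 0.175 CPM with oridonin and 0.809 ± 0.146 CPM with DMSO (SD, n = 3 each), and did not pass. IRF7, which amplifies interferon alpha transcription, had 45, 14 and 16 counts in the oridonin libraries and 12, 10 and 12 counts in the DMSO libraries. Oridonin replicate 1 stood apart: the log2 fold change of IRF7 was 0.90 with all libraries and not called (edgeR adjusted p = 0.111), 0.21 without oridonin replicate 1, and 1.19 and called without oridonin replicate 2 (adjusted p = 0.0439, in a range of 0.0439 to 0.7175 over the other settings that tested it).

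The cytosolic RNA sensors RIGI and IFIH1 changed in opposite directions. RIGI (deposited as DDX58, ENSG00000107201, hg38 chromosome 9, 32455705 to 32526324, minus strand), which recognises RNA with a 5′ triphosphate, had 15.0, 14.9 and 14.6 CPM with oridonin, against 10.2, 8.04 and 9.09 CPM with DMSO. The groups were well apart, with a 1.64-fold rise (log2 fold change 0.71 ± 0.09, SE, edgeR adjusted p = 1.05e-05). IFIH1 (ENSG00000115267, hg38 chromosome 2, 162267079 to 162318703, minus strand), also called MDA5, recognises long double-stranded RNA and had 4.05, 4.84 and 3.79 CPM with oridonin, against 7.11, 7.38 and 7.34 CPM with DMSO. All 3 oridonin libraries were lower (-0.78 ± 0.12, SE, edgeR adjusted p = 4.93e-05). The ratio of RIGI to IFIH1 counts, which no scaling of libraries can alter, was 3.705, 3.08 and 3.84 with oridonin and 1.44, 1.09 and 1.24 with DMSO. This pair was chosen after its values were seen, and the two-sided exact permutation p of 0.1 is the smallest that 3 against 3 libraries allow.

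Of the regulators of RNA sensing, ADAR, which edits adenosine to inosine in double-stranded RNA, fell, and TRIM25, a ubiquitin ligase that activates RIGI, did not pass. ADAR had 221, 220.1 and 214 CPM with oridonin, against 251, 254 and 248 CPM with DMSO, a tight and separate pair of groups (-0.20 ± 0.04, SE, edgeR adjusted p = 0.00172). TRIM25 had 95.3, 97.1 and 91.5 CPM with oridonin and 91.7, 93.3 and 96.3 CPM with DMSO, and the groups overlapped.

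Of 17 other genes of nucleic acid sensing and interferon induction, 11 were tested, 2 rose and 2 fell. Each direction held 18.2% of the tested genes on this list, beside 20.6% higher and 21.3% lower over all tested genes. TICAM1, the adaptor of the RNA sensor TLR3, rose to 24.6 ± 2.31 CPM with oridonin, against 15.8 ± 1.69 CPM with DMSO, and STING1, the adaptor of cytosolic DNA sensing, to 7.81 ± 0.803 CPM with oridonin, against 5.74 ± 0.480 CPM with DMSO (SD, n = 3 each). EIF2AK2, the RNA-dependent kinase PKR, averaged 48.4 ± 1.57 CPM with oridonin and 55.6 ± 3.01 CPM with DMSO (-0.20, edgeR adjusted p = 0.011). The call was lost without DMSO replicate 1 (-0.17, edgeR adjusted p = 0.05003), with total-count scaling and with limma on log2 FPKM. The adjusted p ranged from 0.000385 to 0.1275 over 14 settings. EIF2AK2 shares 35 exon bases with GPATCH11 on the opposite strand. DHX58, a regulator of both RNA sensors, averaged 2.23 ± 0.0900 CPM with oridonin and 2.96 ± 0.235 CPM with DMSO (SD, n = 3 each). It was called at -0.40 (edgeR adjusted p = 0.0461), but leaving out any 1 of the 6 libraries ended the call (edgeR adjusted p 0.0635 to 0.138). The call also ended with total-count scaling, no low-count filter, DESeq2 and limma on log2 FPKM. The adjusted p ranged from 0.0383 to 0.182 over 14 settings. The DNA sensor gene CGAS had 0 to 3 counts per library and the RNA sensor gene TLR3 had 3 to 12, so neither was tested; both are named after their values were seen.

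**Figure D2:**
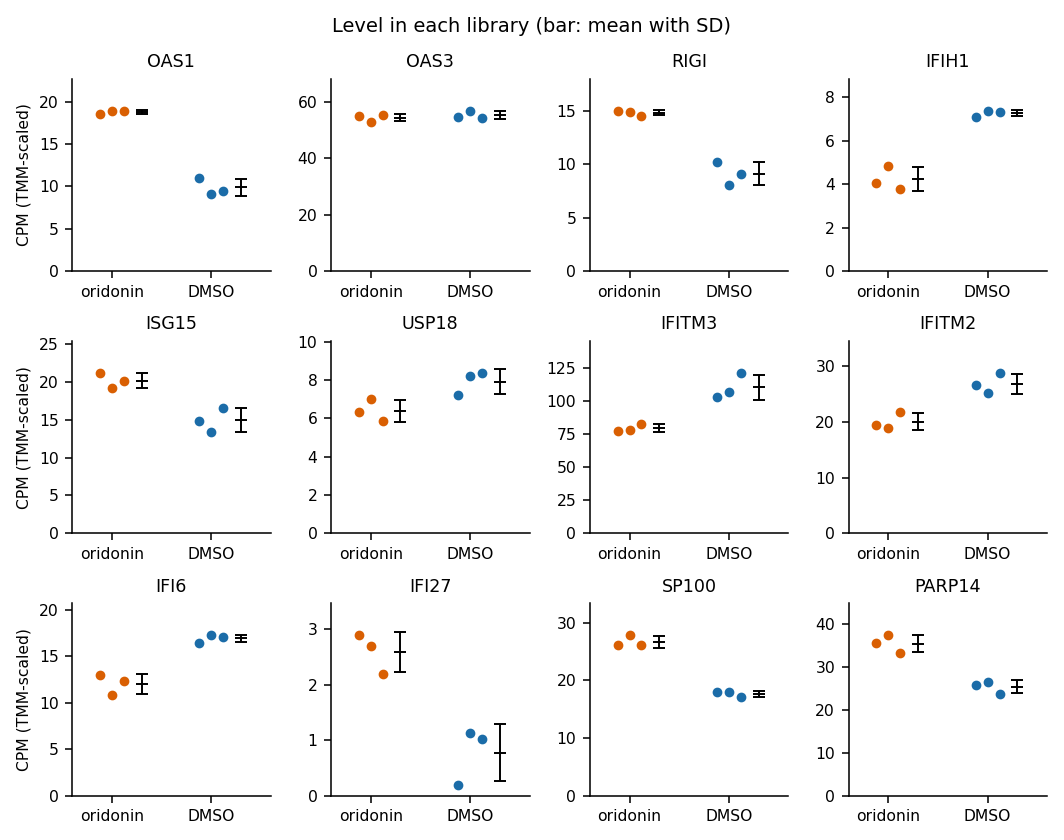
TMM-scaled CPM of 12 members in each library (points), with the mean and SD of 3 libraries per group. OAS1, RIGI, ISG15, SP100, PARP14 and IFI27 were higher in every oridonin library, USP18, IFIH1, IFITM2, IFITM3 and IFI6 were lower in every oridonin library, and OAS3 overlapped.

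The antiviral enzymes were led by OAS1, while the IFIT genes were close to the detection limit or did not pass. OAS1 (ENSG00000089127, hg38 chromosome 12, 112906777 to 112933222, plus strand) makes the 2-5A signal that activates RNase L. It had 18.5, 18.9 and 18.9 CPM with oridonin, against 11.0, 9.10 and 9.49 CPM with DMSO. This 1.91-fold rise (log2 fold change 0.94 ± 0.08, SE, edgeR adjusted p = 1.66e-07) had the smallest p of the members. OAS3, a larger enzyme of the same kind whose gene lies 5.1 kb downstream on the same strand, had 55.1, 52.9 and 55.3 CPM with oridonin and 54.6, 56.8 and 54.3 CPM with DMSO. Its groups overlapped (-0.02 ± 0.05, SE), and its direction was positive, at 0.06, with total-count scaling. The OAS1 to OAS3 count ratio was 0.336, 0.357 and 0.342 with oridonin and 0.201, 0.160 and 0.175 with DMSO (two-sided exact permutation p = 0.1, the smallest possible, for a pair chosen after its values were seen). OASL, the third gene of this family among the members, had 3, 4 and 6 counts with oridonin and 1, 1 and 0 counts with DMSO and was not tested.

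MX1, a dynamin-like GTPase that traps viral nucleocapsids, had 2.57, 2.37 and 2.98 CPM with oridonin, against 3.42, 3.55 and 3.58 CPM with DMSO. The groups were separate at a low level (-0.42 ± 0.15, SE, edgeR adjusted p = 0.0304). The call was lost without oridonin replicate 1 (edgeR adjusted p = 0.085), oridonin replicate 2 (0.114), DMSO replicate 2 (0.077) or DMSO replicate 3 (0.064). It was also lost with total-count scaling, no low-count filter, DESeq2 and limma on log2 FPKM. The adjusted p ranged from 0.0231 to 0.202 over 14 settings. The IFIT proteins bind foreign RNA and block its translation. IFIT5 averaged 6.97 ± 0.320 CPM with oridonin and 6.47 ± 0.298 CPM with DMSO (SD, n = 3 each), and IFIT3 had 17 to 22 counts per oridonin library and 8 to 22 per DMSO library; neither passed. IFIT1 had 5 to 9 counts with oridonin and 5 to 18 with DMSO, IFIT2 had 1 to 3 with oridonin and 0 to 2 with DMSO, and neither was tested. ISG20, a 3′ to 5′ exonuclease, averaged 11.1 ± 0.882 CPM with oridonin and 10.2 ± 0.486 CPM with DMSO, and SAMD9, an antiviral factor, 0.396 ± 0.0792 CPM with oridonin and 0.391 ± 0.0704 CPM with DMSO (SD, n = 3 each). Neither of them passed the test.

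The membrane restriction factors were lower in both detected IFITM genes. IFITM3 (ENSG00000142089, hg38 chromosome 11, 319669 to 327537, minus strand), which blocks viral fusion in endosomes, had 77.4, 78.4 and 82.9 CPM with oridonin, against 103, 107 and 121 CPM with DMSO. All oridonin libraries were lower (-0.48 ± 0.06, SE, edgeR adjusted p = 8.13e-06). IFITM2, its neighbour at a distance of 4.4 kb, had 19.3, 18.9 and 21.7 CPM with oridonin, against 26.6, 25.1 and 28.7 CPM with DMSO (-0.42 ± 0.08, SE, edgeR adjusted p = 0.000237). The 2 genes are close paralogs, so reads could have been assigned to either and the value of each alone is uncertain. IFITM1 had 2, 5 and 9 counts with oridonin and 0, 8 and 4 counts with DMSO, and was not tested. BST2, or tetherin, which holds budding virus at the cell surface, had 58.0, 56.7 and 59.9 CPM with oridonin and 60.1, 66.4 and 62.5 CPM with DMSO. The groups did not overlap, but the change of -0.12 ± 0.06 (SE) did not pass (edgeR adjusted p = 0.108).

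In the ISG15 system, ISG15 rose while the conjugating enzyme UBE2L6 and the deconjugating protease USP18 fell. ISG15, a ubiquitin-like modifier, had 21.2, 19.1 and 20.1 CPM with oridonin, against 14.9, 13.4 and 16.6 CPM with DMSO. The groups were apart (0.43 ± 0.08, SE, edgeR adjusted p = 0.000567). UBE2L6 had 15.3, 15.8 and 16.6 CPM with oridonin, against 20.6, 19.1 and 19.6 CPM with DMSO, again without overlap (-0.31 ± 0.07, SE, edgeR adjusted p = 0.00217). USP18, which also restrains the type I receptor, had 6.31, 7.01 and 5.88 CPM with oridonin, against 7.20, 8.22 and 8.36 CPM with DMSO (-0.31 ± 0.11, SE, edgeR adjusted p = 0.0292). The USP18 groups lay close together. The call was lost without oridonin replicate 1 (edgeR adjusted p = 0.0823), oridonin replicate 3 (0.1105), DMSO replicate 2 (0.0973) or DMSO replicate 3 (0.0767). It was also lost with total-count scaling and with DESeq2. The adjusted p ranged from 0.0149 to 0.1105 over 14 settings. The ISG15 to USP18 count ratio, for a pair chosen after its values were seen, was 3.35, 2.73 and 3.42 with oridonin and 2.07, 1.63 and 1.98 with DMSO (two-sided exact permutation p = 0.1, the smallest possible).

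Among the ADP-ribosyltransferases, PARP14 and PARP9 rose. PARP14, a mono-ADP-ribosyltransferase, had 35.7, 37.4 and 33.4 CPM with oridonin, against 25.9, 26.7 and 23.8 CPM with DMSO, groups clearly apart (0.48 ± 0.07, SE, edgeR adjusted p = 2.54e-05). PARP9 had 11.8, 11.3 and 10.1 CPM with oridonin, against 10.3, 9.27 and 8.14 CPM with DMSO. These groups overlapped, with a call at 0.27 ± 0.10 (SE, edgeR adjusted p = 0.0436). The call was lost without oridonin replicate 1 (edgeR adjusted p = 0.1646), oridonin replicate 2 (0.115), DMSO replicate 2 (0.0948) or DMSO replicate 3 (0.1645). It was also lost with DESeq2 and with limma on log2 FPKM. The adjusted p ranged from 0.0117 to 0.1646 over 14 settings. DTX3L, the ubiquitin ligase that pairs with the PARP9 protein, overlaps PARP9 on the opposite strand, with 217 exon bases shared, so part of the reads of either gene could belong to the other. DTX3L averaged 22.6 ± 0.762 CPM with oridonin and 21.0 ± 1.02 CPM with DMSO, and PARP12, an RNA-binding member of the family, 15.0 ± 0.332 CPM with oridonin and 16.9 ± 0.944 CPM with DMSO (SD, n = 3 each). Neither gene passed the test.

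SP100 and PML encode scaffold proteins of the PML nuclear bodies, which take part in intrinsic defence against DNA viruses. SP100 had 26.1, 27.8 and 26.1 CPM with oridonin, against 18.0, 17.9 and 17.1 CPM with DMSO. It rose in every oridonin library (0.59 ± 0.07, SE, edgeR adjusted p = 2.27e-06). PML averaged 27.8 ± 0.769 CPM with oridonin and 26.0 ± 1.53 CPM with DMSO (SD, n = 3 each), and did not pass.

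The IFI genes, named for their induction by interferon, went in both directions. IFI6, a small mitochondrial and endoplasmic reticulum protein, had 12.9, 10.8 and 12.3 CPM with oridonin, against 16.4, 17.2 and 17.1 CPM with DMSO. All oridonin libraries were lower (-0.49 ± 0.08, SE, edgeR adjusted p = 0.000154). IFI35 averaged 25.8 ± 1.71 CPM with oridonin and 25.3 ± 0.486 CPM with DMSO (SD, n = 3 each) and did not pass, and IFI44 had 0 or 1 counts per library and was not tested.

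IFI27 had the largest log2 fold change of the tested members, at a low level. It had 92, 83 and 62 counts (2.89, 2.69 and 2.20 CPM) in the oridonin libraries, against 4, 32 and 28 counts (0.182, 1.12 and 1.02 CPM) in the DMSO libraries. All oridonin libraries were higher, and DMSO replicate 1 was the lowest (1.67 ± 0.34, SE, edgeR adjusted p = 0.00185). Without DMSO replicate 1 the log2 fold change of IFI27 was 1.27 (adjusted p = 0.000157, in a range of 1.03e-11 to 0.0438 over 14 settings). The sum of the plasma cell markers was lowest in that library too, at 0.365 CPM, most of it MZB1 with 7 counts. The sum was 26.0, 84.2 and 79.7 CPM in the oridonin libraries, and 10.6 and 18.7 CPM in the other two DMSO libraries. Of the 8 tested of 11 plasma cell markers, 2 passed as higher with oridonin (IGHM and JCHAIN) and 6 did not pass. The log2 fold changes of all 8 were positive, from 1.598 to 3.283 with a median of 2.655. For 6 of the 8, every oridonin library lay above every DMSO library. The other plasma cell markers, TNFRSF17, IGLC3 and MZB1, were not tested. TNFRSF17 had 0 or 1 counts. IGLC3 had 2, 85 and 71 counts with oridonin and 0, 4 and 5 counts with DMSO. MZB1 had 3, 15 and 11 counts with oridonin and 7, 2 and 5 counts with DMSO. Of the 8 tested of 9 gut epithelium markers, 6 were higher and 1, VIL1, was lower, with a sum of 303 to 313 CPM with oridonin and 381 to 402 CPM with DMSO, most of it VIL1. The 6 that rose were PIGR, CDX1, CDX2, LGALS4, MUC2 and MUC13, and DMSO replicate 1 had the lowest CPM for each of them but MUC13. PIGR had 51, 157 and 158 counts with oridonin and 2, 9 and 9 counts with DMSO, a 15.6-fold rise, and LGALS4 had 78, 99 and 100 counts with oridonin and 2, 44 and 36 counts with DMSO; both are named after their values were seen. Among the DMSO libraries, replicate 1 also had the lowest endothelial and fibroblast sum, at 6.74 CPM against 9.24 and 8.18 CPM, and the lowest leukocyte sum. Its hepatocyte, gut epithelium and plasmacytoid dendritic cell sums were the highest of that group. The part of any marker list in the IFI27 result was not tested. The labels name HepG2 only, and the source of the marker RNA was not tested. In bulk RNA a change in cell number cannot be told apart from a change in RNA per cell.

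**Figure D3:**
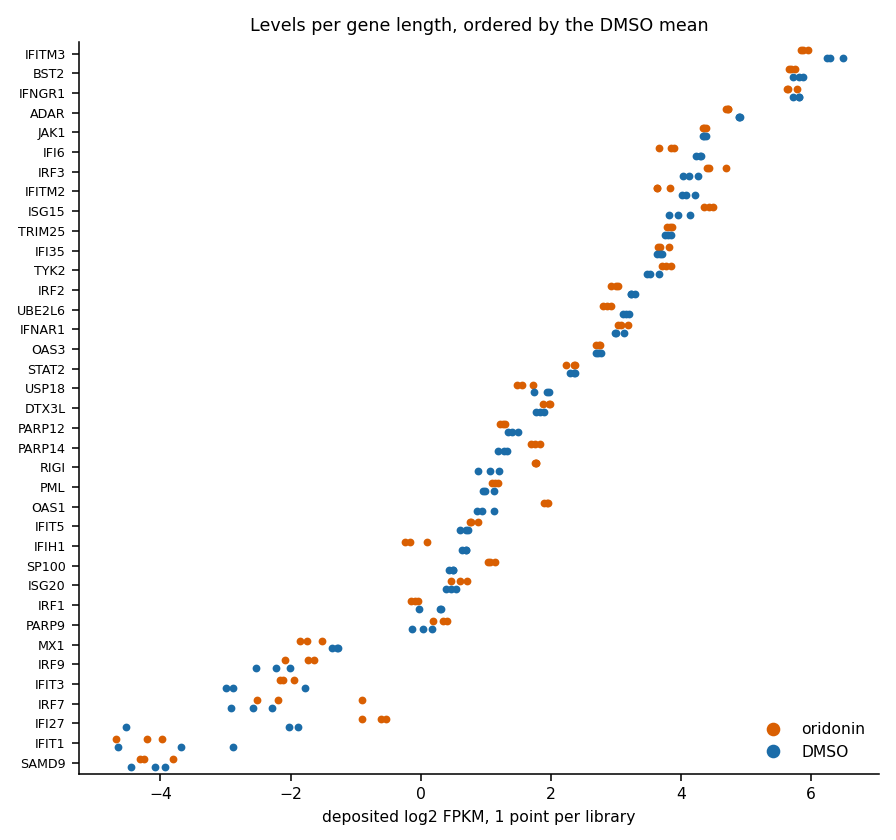
Deposited log2 FPKM (fragments scaled by gene length and library depth) of the 37 members in that table, 1 point per library, ordered by the DMSO mean. Levels ran from IFITM3, at a mean of 5.89 with oridonin and 6.34 with DMSO, to SAMD9, at -4.13 with oridonin and -4.16 with DMSO.

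Per gene length, the members covered a wide range of levels. On the deposited log2 FPKM scale, IFITM3 stood highest, with a mean of 5.89 with oridonin and 6.34 with DMSO, followed by BST2 at 5.71 with oridonin and 5.81 with DMSO and IFNGR1 at 5.68 with oridonin and 5.78 with DMSO. OAS1 was at 1.93 with oridonin and 0.98 with DMSO, and OAS3 at 2.73 in both groups. The level of IFIH1 was -0.10 with oridonin and 0.67 with DMSO, while RIGI stood at 1.77 with oridonin and 1.05 with DMSO. Lower levels were those of MX1 at -1.71 with oridonin and -1.31 with DMSO, IFIT3 at -2.08 with oridonin and -2.55 with DMSO, and IFIT1 at -4.29 with oridonin and -3.74 with DMSO. OASL, IFIT2, IFITM1 and IFI44, each with 0 counts in at least 1 library, are not in that table.

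The signalling inhibitors of the pathway, which were not members, held the largest fall among the related genes. Of 8 tested inhibitors, 1 rose and 3 fell (12.5% and 37.5%, beside 20.6% and 21.3% over all tested genes). SOCS1, which blocks JAK kinases at interferon receptors, had 3.86, 3.86 and 4.79 CPM with oridonin, against 8.70, 8.53 and 10.6 CPM with DMSO, well separated (-1.16 ± 0.12, SE, edgeR adjusted p = 1.22e-06). SOCS3, an inhibitor of the STAT3 pathway, averaged 2.13 ± 0.460 CPM with oridonin and 1.19 ± 0.298 CPM with DMSO (SD, n = 3 each). It was called at 0.85 ± 0.23 (SE) with an edgeR adjusted p of 0.00716, and was not called without DMSO replicate 2 (0.64, adjusted p = 0.05325, in a range of 0.000919 to 0.05325 over 14 settings). PTPN2, a phosphatase that acts on JAK1, fell to 27.0 ± 3.63 CPM with oridonin, against 34.4 ± 1.77 CPM with DMSO (SD, n = 3 each).

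Of 43 other interferon-stimulated genes on a list drawn from general knowledge, 27 passed the filter, of which 4 were higher and 5 lower. Those shares were 14.8% and 18.5%, beside 20.6% higher and 21.3% lower over all tested genes. GBP3, a guanylate-binding GTPase, was called at 1.68 ± 0.42 (SE, edgeR adjusted p = 0.00414) at a very low level, 0.628 ± 0.225 CPM with oridonin and 0.196 ± 0.0481 CPM with DMSO (SD, n = 3 each). SHISA5 rose to 122 ± 2.82 CPM with oridonin, against 106 ± 5.78 CPM with DMSO. HELZ2, a helicase-like coactivator, fell to 45.4 ± 4.92 CPM with oridonin, against 57.8 ± 4.10 CPM with DMSO (SD, n = 3 each). LGALS3BP, a secreted galectin-binding glycoprotein, averaged 504 ± 18.2 CPM with oridonin and 569 ± 21.4 CPM with DMSO (-0.18, edgeR adjusted p = 0.00712). It was not called without oridonin replicate 1 (-0.15, edgeR adjusted p = 0.0519), with total-count scaling or with limma on log2 FPKM. The adjusted p ranged from 6.14e-05 to 0.0987 over 14 settings. OAS2, RSAD2, IFI44L and CXCL10, strongly induced by interferon in many cells, had at most 13, 1, 2 and 2 counts in any library, were not tested and are named after their values were seen.

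**Figure D4:**
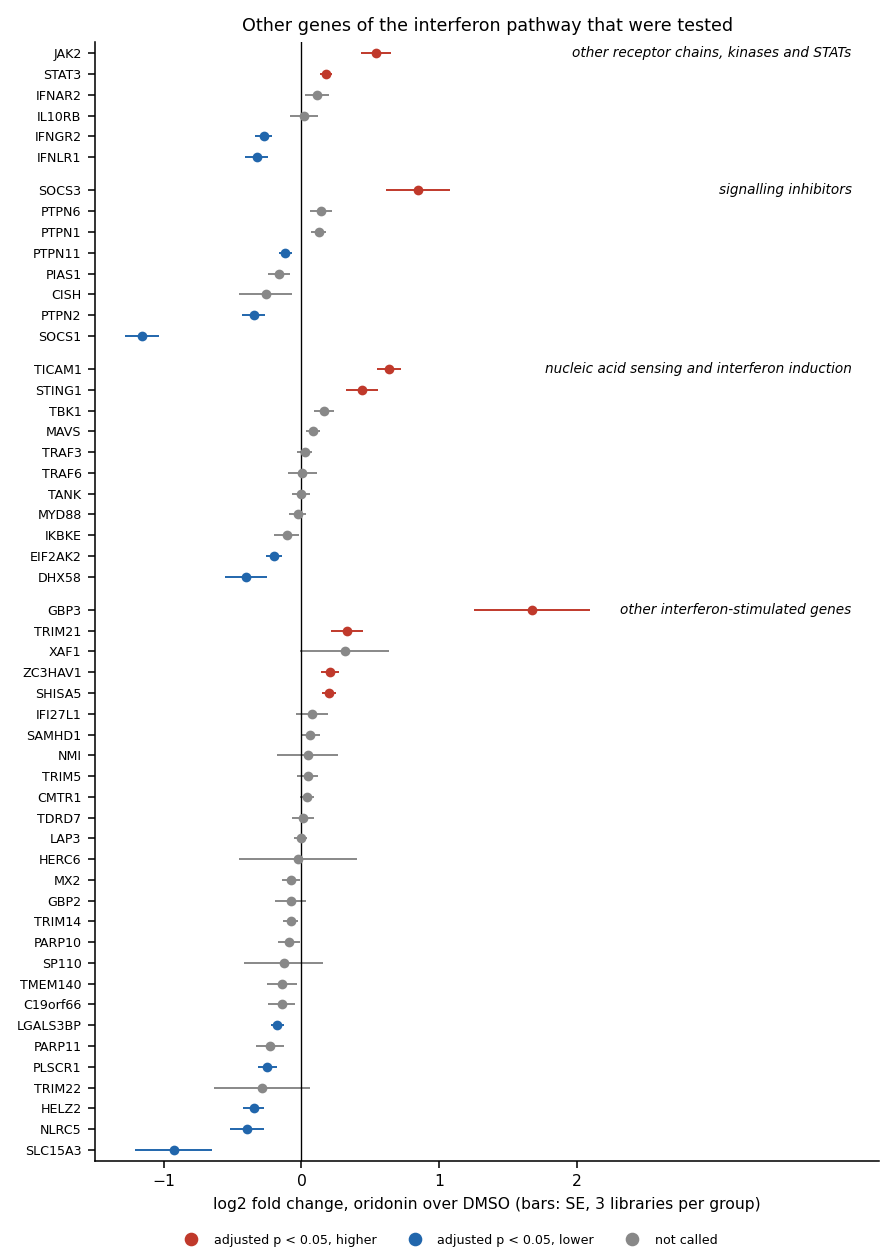
Log2 fold change with standard error of the tested genes of the related lists, oridonin over DMSO, 3 libraries per group. SOCS1 at -1.16 and GBP3 at 1.68 are the ends of the range, and most other interferon-stimulated genes lie near 0.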

How the data were processed

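RNA-seq of HepG2 was available as 2 deposited tables covering 3 oridonin and 3 DMSO libraries. The authors deposited raw read counts per Ensembl gene, and a table of log2 FPKM values with gene lengths. Build hg38 and DESeq2 1.10.1 are named per the submitters' processing notes; no aligner, counter or strand setting was stated there.

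The counts were filtered with filterByExpr, TMM-scaled and tested with edgeR 4.0.16 (robust quasi-likelihood, R 4.3.3), oridonin over DMSO, with Benjamini-Hochberg adjustment over all 15116 tested genes and a threshold of 0.05. The fit was tested on simulated data. Replicate pairs differed beyond counting noise (chi-square per degree of freedom 7.29 to 9.54). Each library counted as 1 sample, but this check cannot tell separate cultures from repeat preparations of 1 culture. Alternatives were 14 settings: other scalings and filters, no robust estimation, DESeq2 1.42.0, limma 3.58.1 on the deposited log2 values, a replicate block, and each library left out.

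Members and lists were chosen with earlier results of these data known. Values per library were given for up to 24 members: in each role the 3 called members, or fewer, of smallest p, the uncalled or untested member with the highest mean count, and any called member past 2-fold. Other members have means, ranges or counts; from each related list up to 2 called genes per direction are named. Motifs were searched in RefSeq promoters (GRCh38.p14), and shared exons were computed from GENCODE annotation. JAK1, IRF1, TRIM25 and IFITM3 share exon bases with genes of lower level, so reads of either gene could be counted for the other. A further gene of the related lists is not reported here.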

Additional observations from a re-analysis of the deposited data

How the results depend on the processing

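Of the 19 called members, 15 were called with the same sign in all 14 settings, 4 were not called in some (IRF1, MX1, USP18 and PARP9), and 0 reversed. Of the uncalled members 5 were called in some (IFNGR1, IRF7, BST2, DTX3L and PML). Of 15 related genes named as called, 11 were called in all settings that tested them; for GBP3 these were 13, since the filter of 1 CPM in 3 libraries left it out. The cause of these changes was not tested. The median log2 fold change of the members, 0.03, was 0.11 with total-count scaling and 0.00668 with a filter of 1 CPM in 3 libraries, and ranged from 0.00108 to 0.0558 with 1 library left out. Related genes called, 9 higher and 12 lower, were 13 higher and 7 lower with total-count scaling, and 6 lower with limma. Over all genes tested in each setting, calls were 3118 higher and 3214 lower in the main fit. They were 4487 higher and 2359 lower with total-count scaling, and 2598 lower with limma. Uncalled members near 0 changed sign. With total-count scaling JAK1 was at 0.0726, STAT2 at 0.0397 and OAS3 at 0.0584; JAK1 was at 0.0102 with no filter and 0.00667 with limma. With 1 library left out, IFNAR1 ranged from -0.00198 to 0.0867, JAK1 from -0.0231 to 0.00975, STAT2 from -0.0749 to 0.00307, TRIM25 from -0.00746 to 0.0368, SAMD9 from -0.143 to 0.139 and IFI35 from -0.0317 to 0.0599.

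Same-numbered libraries correlated at 0.194, 0.0651 and 0.173 in their deviations from the group means, each highest for its own number, a hint from the data and not from the design. A replicate block called 9 members higher and 12 lower, with IFNGR1 (adjusted p = 0.00956) and BST2 (adjusted p = 0.0311) added by edgeR. Calls rose over all tested genes too, to 3850 higher and 3839 lower with the block, against 3118 and 3214 without it. The 5 untested members had too few counts for a comparison at this depth.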
